A study of Mus musculus with 20 samples.

Results

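A set of 10 genes of T cells and natural killer (NK) cells was followed in the livers of benzo(a)pyrene (BaP)-exposed mice: *Cd3d*, *Cd3e*, *Cd3g*, *Cd4*, *Cd8a*, *Lck*, *Nkg7*, *Gzma*, *Gzmb* and *Prf1*. They were chosen by name, and all array probes whose transcript accession belongs to 1 of the 10 genes were taken. There were 11 such probes for 9 genes, out of 16535 genes with a probe on the array, and no probe was matched to *Cd8a*. All mice were male Muta™Mouse animals (strain 40.6), which carry a *lacZ* mutation reporter transgene in every group, controls included, and were 25 weeks of age. Each of 4 groups held 5 mice, which received olive oil (control, mice 1 to 5) or BaP by oral gavage at 25 (low dose, mice 6 to 10), 50 (middle dose, mice 11 to 15) or 75 mg/kg/day (high dose, mice 16 to 20) for 28 days. Tissue was taken 3 days after the last dose. Liver RNA of each mouse (Cy5) shared its array with a universal mouse reference RNA (Cy3), a mixture from 11 cell lines, with the dyes the same way round on all arrays, and values are log2 ratios of liver over reference. Whole liver was used, so fewer cells of a type and less RNA per cell cannot be told apart.

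T cells recognize antigen through a receptor whose signal is carried by the CD3 chains, encoded by *Cd3d*, *Cd3e* and *Cd3g*. The co-receptors CD4 and CD8 bring the kinase Lck to the receptor, and Lck phosphorylates the CD3 chains to start the signal. Cytotoxic T cells and NK cells store perforin (*Prf1*) and granzymes (*Gzma*, *Gzmb*) in granules, in whose membrane Nkg7 is found, and release them onto target cells. The liver is home to resident T cells, NK cells and NKT cells within the sinusoids. BaP is a polycyclic aromatic hydrocarbon that activates the aryl hydrocarbon receptor and is metabolized to products that bind DNA.

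The arrays had 51.9 to 67.5% of their spots well above background for liver RNA, and control mouse 4 had the highest share. Correlations between arrays of a group ranged from 0.931 to 0.983. The 12 hepatocyte markers measured were well above background on every array, with array means of the log2 ratio of 4.35 to 5.68, whereas 2 to 4 of the 9 lung epithelium markers measured were so on all 5 arrays of a group. One label of each sample names lungs, another names liver, and the samples were taken as liver. The arrays lay on 6 slides of 4 positions. All low-dose arrays were at position 2, all high-dose arrays at position 4, 4 of 5 control arrays at position 1 and 4 of 5 middle-dose arrays at position 3, so that dose and position cannot be told apart.

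The liver signals of these genes were weak. For the antigen receptor genes, *Cd3e*, *Cd3g* and *Lck* were well above background on 20 of 20 arrays, and *Cd3d* on 18. Their liver signals over the local background had medians of 2.44 for *Cd3e*, 1.56 for *Cd3g*, 1.74 for *Lck* and 1.55 for *Cd3d*. *Cd4* was measured by 2 probes, of which the brighter one, printed as 10 spots, was well above background on 18 arrays with a median of 1.33, and the dimmer one on 0 arrays with a median of 1.05.

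Among the cytotoxic genes of the set, *Nkg7* was detected well above background, and *Prf1*, *Gzma* and *Gzmb* were not. The brighter *Nkg7* probe was well above background on 20 arrays (median 1.51), and the dimmer one on 6 (median 1.20), which were 1 array each of the control and low-dose groups and 2 each of the middle- and high-dose groups. *Gzma* (chr13:113093824-113100981), *Gzmb* (chr14:56258836-56262334) and *Prf1* (chr10:61297751-61304684, all GRCm38.p6) were not well above background for liver RNA on any of the 20 arrays, at any dose. Their liver signals over background ranged from 1.00 to 1.27 for *Gzma*, from 0.947 to 1.30 for *Gzmb* and from 0.935 to 1.32 for *Prf1*. By the less strict limit set by the negative control spots, *Gzma* exceeded it on 2 arrays, *Gzmb* on 8 and *Prf1* on 8. In the reference channel *Gzma* was well above background on 8 arrays, and *Gzmb* and *Prf1* on 0. In that channel *Cd3d*, *Cd3e*, *Cd3g* and *Lck* were so on 20 arrays. The brighter *Nkg7* probe was so on 14, the brighter *Cd4* probe on 13 and the dimmer *Nkg7* probe on 0. Log2 ratios of those *Nkg7* and *Cd4* probes therefore rest in part on a reference signal near background. The fold changes of *Gzma*, *Gzmb*, *Prf1* and the dimmer *Cd4* probe are not read as changes. Absence of these genes from the liver does not follow from a signal at background.

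**Figure D1:**
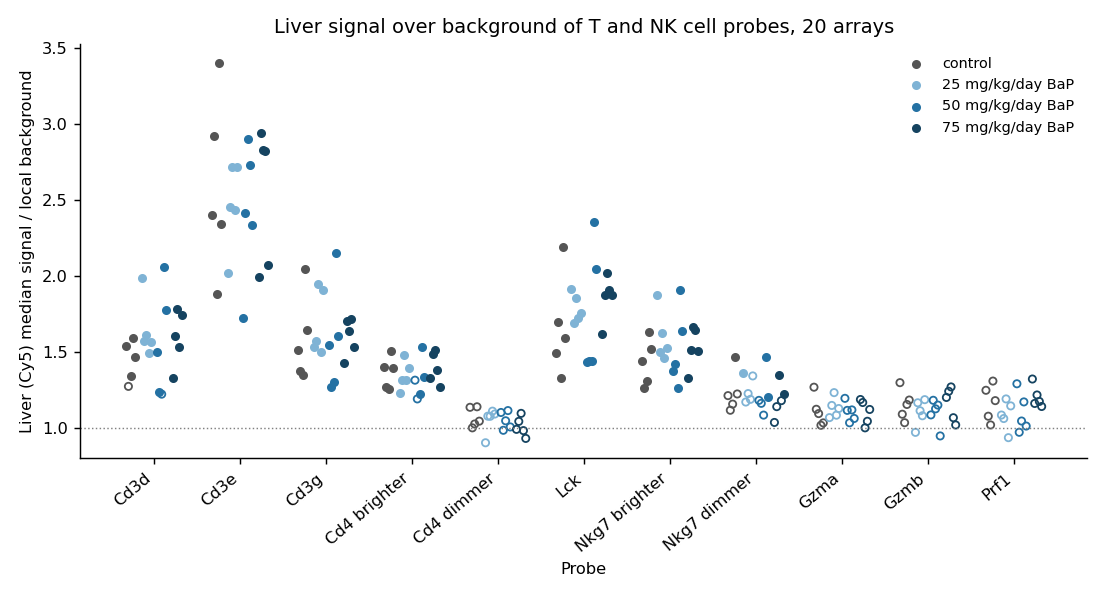
Liver (Cy5) median signal divided by the local background for each of the 11 probes (x axis) on the 20 arrays, with colours for the 4 dose groups. Filled points are arrays on which the probe was well above background and open points are the others; the *Cd3e* points reach 3.40, while *Gzma*, *Gzmb*, *Prf1* and the dimmer *Cd4* probe are open throughout.

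A probe was taken as present, and tested, if its liver signal exceeded the level of the negative control spots on 4 or 5 of the 5 arrays in 1 or more groups. Of the 11 probes 7, for 6 of the genes, met this rule. The dimmer *Nkg7* probe met it in the low-dose group only. A probe was called changed at a fold change over 1.5 and an adjusted p under 0.05 by limma with Benjamini-Hochberg adjustment over all 27345 present probes. All 3 doses were set against the same 5 control mice.

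No probe of the T cell and NK cell genes was called at any dose. Over all present probes, 0% were called at the low, 0% at the middle and 0.135% at the high dose, so a count of 0 among 7 probes lies within the background. The median log2 fold change over all 11 probes was -0.026, -0.011 and -0.038 at the low, middle and high dose, beside -0.0045, -0.0035 and -0.0038 over all 41174 probes. As the median of the 11 includes the 4 probes that were not present, and its low- and high-dose values are those of *Prf1* and the dimmer *Cd4* probe, it describes the set and is no measure of a lack of change. The SD of the median log2 ratio of the 11 probes between arrays of a group was 0.0789. Of the 21 intervals (95%) of the 7 probes at 3 doses, 20 lay within a 1.5-fold change in either direction, and the exception was *Cd3g* at the high dose. Because these spots are dim and an offset was added before the ratio was taken, the log2 ratios and the intervals are compressed towards 0.

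**Figure D2:**
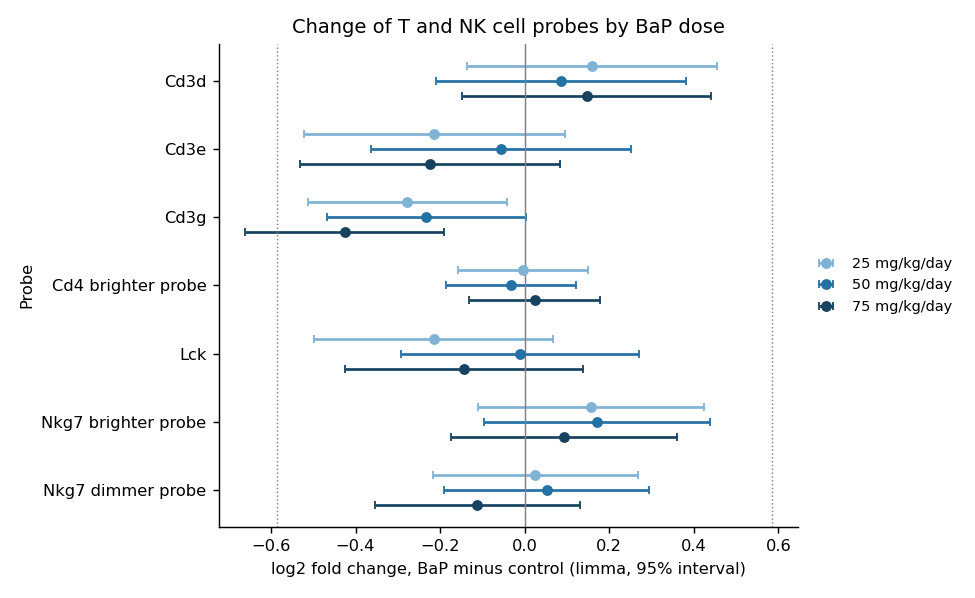
Log2 fold change of BaP-exposed mice over controls (x axis) for the 7 probes that were present (y axis), by dose, with 95% intervals from limma (n = 5 per group). Dotted lines mark a 1.5-fold change; 19 of 21 intervals include 0, and the others are those of *Cd3g* at the low and high dose.

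*Cd3g*, which encodes the gamma chain of CD3, had its lowest values in the high-dose mice, a difference that did not pass adjustment over all probes. The log2 ratios in control mice 1 to 5 were -2.55, -2.43, -2.26, -2.24 and -1.96. At the low dose they were -2.43, -2.63, -2.63, -2.49 and -2.65, and at the middle dose -2.57, -2.23, -2.45, -2.84 and -2.53. At the high dose they were -2.68, -2.82, -2.78, -2.58 and -2.71. All 5 mice at the high dose were below all 5 controls, whereas the low- and middle-dose groups overlapped the controls.

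The mean log2 ratio of *Cd3g* was -2.29 ± 0.22 in controls, -2.57 ± 0.10 at the low, -2.52 ± 0.22 at the middle and -2.71 ± 0.09 at the high dose (SD, n = 5). The low- and middle-dose groups, next to each other in this order, differed by less than their spread. Its log2 fold change at the high dose was -0.43 (SE 0.11, 95% interval -0.66 to -0.19), or 0.745 times the control, with an unadjusted p of 0.00120 and an adjusted p of 0.166 by limma. At the low dose it was -0.28 (unadjusted p 0.0230, adjusted p 0.637 by limma) and at the middle dose -0.23 (unadjusted p 0.0519, adjusted p 0.746 by limma). A linear fit on dose gave -0.37 from no BaP to the high dose (SE 0.11, unadjusted p 0.00264, adjusted p 0.250 by limma).

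Other probes on the array crossed the same limits. An unadjusted p under 0.05 with a lower value was found for 3.62% of present probes at the low, 2.94% at the middle and 4.69% at the high dose, against 1, 0 and 1 of the 7 probes here, in each case *Cd3g*. With a higher value the shares were 4.18, 3.75 and 6.52%, against 0 of 7 at each dose. All exposed arrays lay below all controls for 0.655, 0.3 and 0.581% of present probes at the 3 doses, and above them for 0.56, 0.516 and 0.936%. *Cd3g* at the high dose was the only such probe among the 7. On dose, 0.157% of present probes had a trend with an adjusted p under 0.05, and at an unadjusted p under 0.05 5.07% had a slope above 0 and 3.51% a slope below 0. Of the 7 probes 1, again *Cd3g*, was in the latter share and 0 in the former.

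The difference in *Cd3g* was smaller in the liver channel alone. With both channels normalized separately between arrays, the log2 liver signal was 6.93 ± 0.13 in controls and 6.83 ± 0.04 at the high dose (SD, n = 5), a difference of -0.10 (SE 0.089, adjusted p 0.847 by limma). The log2 signal of the reference RNA, which is the same on every array, was 9.85 ± 0.15 in controls and 9.97 ± 0.14 at the high dose, a difference of 0.12 (SE 0.099, unadjusted p 0.232 by limma). The 2 differences need not add up to the change in the ratio, which was normalized within arrays. The part of the reference signal in the result was not tested.

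The direction was the same on each of the 3 slides that held both groups, at sizes that differed several-fold. The high-dose array minus the control array of the same slide gave -0.58 on slide 1, -0.82 on slide 2 and -0.13 on slide 3, with 1 array of each group per slide. At the middle dose the differences were -0.29, -0.88 and -0.019, and 0.012 on slide 6, which held 2 arrays of each group. With slide as a block, the log2 fold change at the high dose was -0.42 (adjusted p 0.211 by limma). It was -0.41 without control mouse 4, and the weakest value on leaving out 1 mouse was -0.34, without control mouse 5 (adjusted p 0.417 by limma). With the authors' own log2 ratios it was -0.51, with an adjusted p of 0.0415 by limma, still under the 1.5-fold limit.

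**Figure D3:**
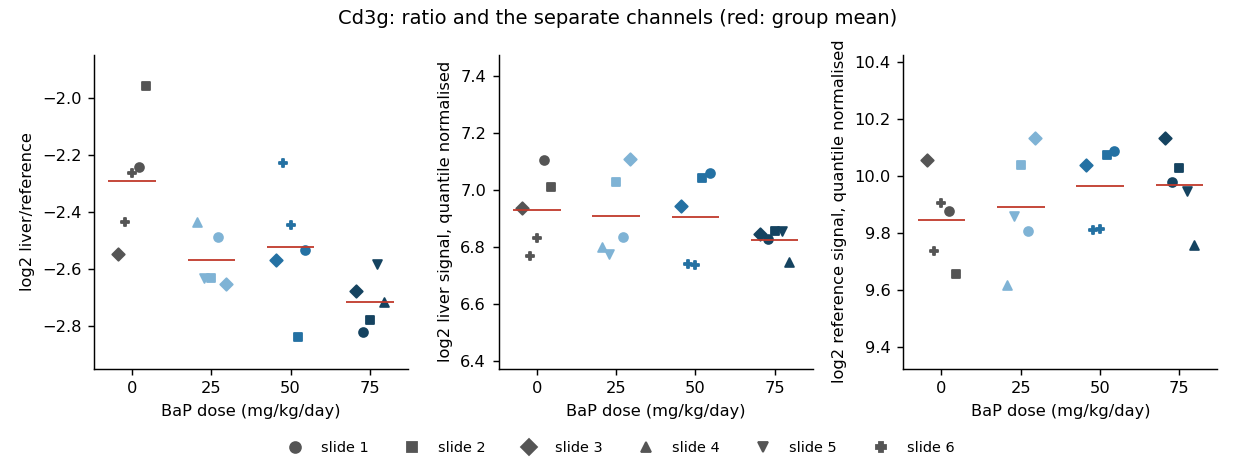
*Cd3g* in each of the 20 livers by BaP dose (x axis): log2 ratio of liver over reference (left), log2 liver signal (middle) and log2 reference signal (right), the last 2 quantile normalised. Symbols give the slide and red lines the group means; in the left panel the high-dose arrays lie between -2.82 and -2.58, below every control.

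For the other CD3 chains, all exposed groups overlapped the controls. *Cd3d*, the delta chain, had log2 ratios of 0.13, 0.036, 0.12, 0.059 and 0.056 in controls, 0.73, 0.057, 0.21, 0.20 and 0.0049 at the low dose, 0.047, -0.0069, -0.052, 0.34 and 0.51 at the middle dose, and -0.12, 0.18, 0.45, 0.11 and 0.52 at the high dose. The 5 controls lay close together (0.08 ± 0.04), and every exposed group held values both inside or below and above their range. The log2 fold changes were 0.16 (SE 0.14), 0.09 and 0.15, with adjusted p-values of 0.789, 0.936 and 0.736 by limma. Slides accounted for 71.1% of the variance of this probe and the dose groups for 8.66%.

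*Cd3e*, the epsilon chain, had log2 ratios of 0.88, 1.27, 0.67, 0.75 and 0.69 in controls and 0.45, 0.54, 0.76, 0.78 and 0.67 at the low dose. They were 0.39, 1.10, 1.23, 0.51 and 0.76 at the middle dose, and 0.55, 0.68, 0.77, 0.73 and 0.42 at the high dose. The groups overlapped at each dose, and the highest values, in control mouse 2 and mice 12 and 13 at the middle dose, were from slide 6, whose remaining array, control mouse 3, had the lowest control value. The log2 fold changes were -0.21 (SE 0.15), -0.06 and -0.22, with adjusted p-values of 0.730, 0.965 and 0.589 by limma. With slide as a block they were 0.013 at the low and 0.0028 at the high dose. In the liver channel alone the differences were -0.31, -0.077 and -0.27 (SE 0.16). Their adjusted p-values were 0.919 at the low and 0.723 at the high dose by limma. Over the alternatives the log2 fold change of *Cd3e* ranged from -0.43 to 0.013 at the low and from -0.41 to 0.0028 at the high dose.

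The 3 CD3 genes lie together on chromosome 9 (GRCm38.p6 annotation), *Cd3g* at chr9:44969572-44980431 and *Cd3e* at chr9:44998735-45009663, both on the minus strand, with *Cd3d* between them at chr9:44981769-44987052 on the plus strand. *Cd3g* and *Cd3d* are transcribed away from each other from RefSeq start sites 1355 bases apart. The start sites used here for *Cd3d* (44981786) and *Cd3e* (45009611) lie inside the gene intervals given above. The windows of these genes therefore overlap those intervals in part. Because these neighbours encode chains of the same receptor, the 250 bases before the RefSeq start site of each are shown (RefSeq, GRCm38.p6), at chr9:44980432-44980681 for *Cd3g* (minus strand), chr9:44981536-44981785 for *Cd3d* (plus strand) and chr9:45009612-45009861 for *Cd3e* (minus strand). Capitals mark the letters AGGAAG, a form of the sequence bound by ETS factors, on either strand.
Cd3g: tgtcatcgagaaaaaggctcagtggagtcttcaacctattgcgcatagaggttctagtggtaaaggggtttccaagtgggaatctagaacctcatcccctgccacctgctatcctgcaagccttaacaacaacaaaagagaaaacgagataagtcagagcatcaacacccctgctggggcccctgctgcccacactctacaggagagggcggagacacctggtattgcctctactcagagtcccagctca
Cd3d: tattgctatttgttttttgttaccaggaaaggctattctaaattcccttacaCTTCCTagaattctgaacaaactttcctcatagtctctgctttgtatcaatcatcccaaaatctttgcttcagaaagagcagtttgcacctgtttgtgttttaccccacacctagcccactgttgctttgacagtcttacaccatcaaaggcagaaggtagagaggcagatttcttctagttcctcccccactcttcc
Cd3e: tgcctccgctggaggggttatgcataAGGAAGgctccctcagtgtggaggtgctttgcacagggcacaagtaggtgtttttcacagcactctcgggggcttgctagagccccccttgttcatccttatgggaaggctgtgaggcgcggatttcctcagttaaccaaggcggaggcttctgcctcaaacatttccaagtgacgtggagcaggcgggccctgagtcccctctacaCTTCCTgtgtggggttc
These letters occur 0 times in the *Cd3g* window, 1 time in the *Cd3d* window and at 2 places in the *Cd3e* window. The later place in the *Cd3e* window lies inside the *Cd3e* gene interval given above. Of 32851 promoter windows of the same length, 29.5% hold the letters. The letters TGTGGT, a form of the sequence bound by RUNX factors, were searched on both strands too, occur in none of the 3 windows and in 14% of all windows, and do not overlap AGGAAG in these windows. Such matches describe the sequence and show no binding.

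For the co-receptor and its kinase, no change was found at any dose. *Cd4* encodes the co-receptor of helper T cells and lies at chr6:124864693-124888247 (GRCm38.p6). Its brighter probe had log2 ratios of 0.28, 0.27, 0.21, 0.28 and 0.30 in controls, 0.24, 0.21, 0.39, 0.28 and 0.19 at the low dose, 0.15, 0.17, 0.21, 0.34 and 0.30 at the middle dose, and 0.21, 0.35, 0.45, 0.21 and 0.25 at the high dose. All exposed groups overlapped the controls. The log2 fold changes were -0.0044, -0.032 and 0.023 (SE 0.074), with adjusted p-values of 0.993, 0.958 and 0.939 by limma. The 10 spots of this probe on 1 array had an SD of 0.0827 to 0.211 (median 0.137), and 11 spots were left out as outliers over all arrays.

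*Lck*, at chr4:129548344-129573641, encodes the kinase that starts receptor signalling. Its probe had log2 ratios of -2.69, -2.24, -2.24, -2.47 and -2.33 in controls and -2.40, -2.54, -2.74, -2.55 and -2.80 at the low dose. They were -2.69, -2.00, -2.33, -2.77 and -2.23 at the middle dose, and -2.44, -2.74, -2.56, -2.36 and -2.57 at the high dose. Each exposed group overlapped the controls. The log2 fold changes were -0.21 (SE 0.14), -0.011 and -0.14, with adjusted p-values of 0.704, 0.993 and 0.730 by limma. In the liver channel alone the differences were 0.038, 0.071 and 0.057, the opposite sign.

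*Nkg7*, at chr7:43437138-43438246, encodes a protein of the cytotoxic granule membrane. Its brighter probe had log2 ratios of 0.48, 0.23, 0.37, 0.45 and 0.58 in controls, 0.89, 0.51, 0.56, 0.55 and 0.39 at the low dose, 0.27, 0.62, 0.34, 0.85 and 0.88 at the middle dose, and 0.24, 0.45, 0.72, 0.57 and 0.61 at the high dose. Mouse 6 at the low dose and mice 14 and 15 at the middle dose were highest, and each exposed group overlapped the controls. The log2 fold changes were 0.16 (SE 0.13), 0.17 and 0.09, with adjusted p-values of 0.770, 0.829 and 0.830 by limma. The dimmer probe gave 0.025, 0.052 and -0.11 (SE 0.12; adjusted p 0.970, 0.956 and 0.760 by limma), and differed in sign from the brighter one at the high dose. At the high dose the brighter probe turned to -0.049 with slide as a block.

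**Figure D4:**
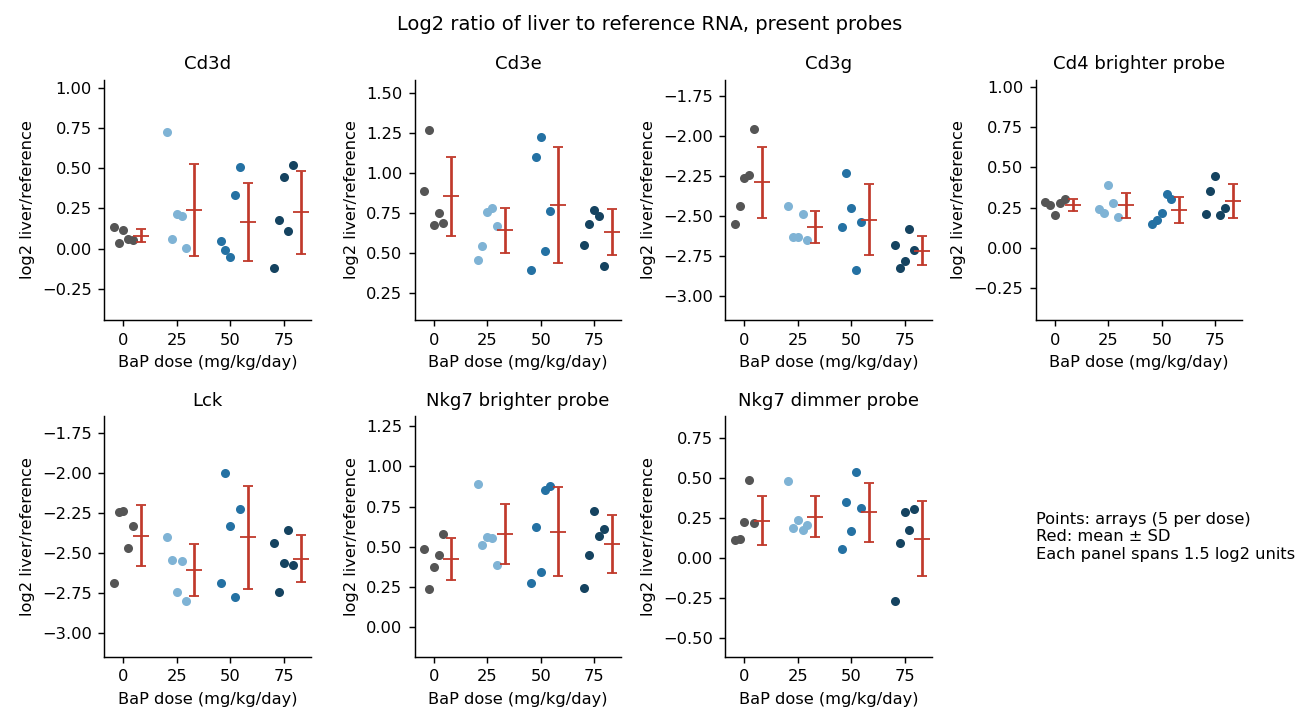
Log2 ratio of liver over reference RNA for the 7 present probes by BaP dose (x axis, 5 mice per dose), with the mean ± SD in red. Each panel spans the same length on its axis; *Cd3g* at the high dose, with a mean of -2.71, is the only exposed group that lies wholly outside the range of the controls.

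Slides carried much of the variation between mice. They accounted for 62.8% of the variance of *Cd3e*, 73.2% of the brighter *Cd4* probe, 53.6% of *Lck* and 54.3% of the brighter *Nkg7* probe, against 17.1, 7.31, 17.9 and 12.3% for the dose groups. *Cd3g* was the reverse, with 19.6% between slides and 49.9% between dose groups. Slides 4 and 5 held no control and slide 6 neither the lowest nor the highest dose, so that both shares hold part of the other. With 6 slides and 4 dose groups, slides also take the larger share by chance alone, and the shares were not tested.

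Correlations between the genes over the 20 arrays describe points that share slides and a reference, and were not tested. Pearson's r was 0.81 between *Cd3d* and the brighter *Nkg7* probe (0.70 with slide means removed), 0.72 between the *Nkg7* probes (0.55) and 0.66 between *Cd3g* and *Lck* (0.61). It was -0.39 between *Cd3d* and *Cd3e* (-0.0018), -0.27 between *Cd3d* and *Cd3g* (-0.36) and 0.33 between *Cd3e* and *Cd3g* (0.0070).

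The 5 genes most like *Cd3e*, *Cd3g*, *Lck* and *Nkg7* (its brighter probe), by mean r over 20 arrays among 17969 probes, were *Gcnt1* (0.54), *2610318N02Rik* (0.51), *Msantd3* (0.50), *Ptprcap* (0.50) and *Adcy7* (0.49). *Gcnt1* encodes a glycosyltransferase that builds branched O-glycans, *Ptprcap* a protein associated with the leukocyte phosphatase CD45, and *Adcy7* an adenylyl cyclase. Their r with *Lck* (0.67 to 0.84) was above that with *Nkg7* (-0.18 to 0.36). With slide means removed their ranks were 75, 92, 71, 146 and 10.

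Other T cell genes had no calls either. Of 16 genes of receptor, co-receptor and signalling beside those above, 15 had a probe, 10 were present and 0 were called at any dose. At the high dose their median log2 fold change was -0.059, and 9 of 15 were lower than control, whereas in the liver channel alone 7 of 15 were lower with a median of 0.0090. *Skap1*, an adaptor of T cell adhesion, had mean log2 ratios of -0.90 in controls and -1.32 at the high dose, a log2 fold change of -0.42 (SE 0.14, unadjusted p 0.00704, adjusted p 0.277 by limma). *Nfatc2*, a transcription factor of activated T cells, had -0.27 (SE 0.094, unadjusted p 0.00942, adjusted p 0.294 by limma), and was well above background on 11 of 20 arrays.

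Of 22 genes of the T cell surface and costimulation with a probe, 16 were present, 0 were called and 16 of 22 were lower at the high dose, with a median of -0.058 (14 of 22 and -0.054 in the liver channel alone). *Cd5*, a brake on receptor signalling, gave -0.26 at the high dose (adjusted p 0.508 by limma), and *Cd96*, a receptor of T and NK cells, -0.18 (adjusted p 0.515 by limma). Of 12 transcription factors of T and NK cells with a probe, 10 were present, 0 were called and 10 of 12 were lower at the high dose, with a median of -0.070 (8 of 12 and -0.052 in the liver channel alone). *Gata3*, of helper T cells, had -0.54 (SE 0.25, unadjusted p 0.0399, adjusted p 0.421 by limma), and *Tbx21*, of T and NK cells, -0.25 (adjusted p 0.508 by limma). These lists were read against a median of -0.0038 and 51.3% of all probes lower.

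NK cell receptors were mostly not detected. Of 18 genes with a probe 5 were present, and 9 to 14 were well above background on no array of a group. None was called, and the median at the high dose was -0.011 (0.021 in the liver channel alone). *Fcgr3*, an Fc receptor that macrophages share, gave 0.43 (adjusted p 0.446 by limma), and *Cd244a*, well above background on 6 of 20 arrays, 0.26 (adjusted p 0.447 by limma). Of 22 further cytotoxic granule and effector genes, 17 were present and 0 were called. At the high dose 13 of 22 were lower, with a median of -0.048. By limma, 2 were higher and 1 was lower at an unadjusted p under 0.05. *Ctsc*, the protease that activates granzymes and is also made in other cells, had 0.42 (unadjusted p 0.0238, adjusted p 0.366 by limma), and *Unc13d*, a factor of granule release, 0.24 (unadjusted p 0.0276, adjusted p 0.379 by limma).

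**Figure D5:**
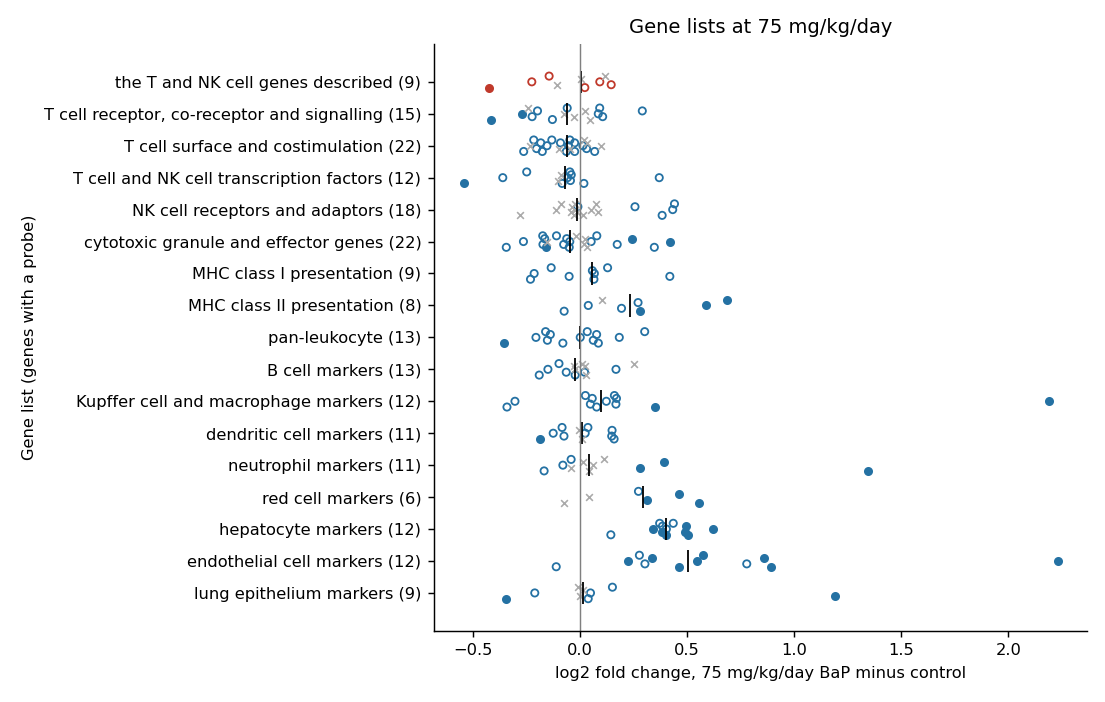
Log2 fold change at the high dose over control for every gene with a probe in each list (y axis, number of genes in brackets), with the T and NK cell genes described here in red. Filled points had an unadjusted p under 0.05, open points did not, grey crosses were not present and not tested, and black bars are medians over all genes with a probe. The T cell lists of signalling, surface and transcription factor genes have medians slightly below 0 (-0.059, -0.058 and -0.070). Hepatocyte (0.40) and endothelial (0.50) markers lie above 0, of which the former do not in the liver channel alone (-0.013).

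For antigen presentation, to which T cells respond, no gene was called. The 9 MHC class I genes with a probe had a median of 0.059 at the high dose, with *Tap2*, a peptide transporter, at -0.23 and *Cd1d1*, which presents lipids to NKT cells, at -0.21 (adjusted p 0.567 and 0.493 by limma). Of 8 MHC class II genes with a probe, 7 were higher, with a median of 0.23. *H2-Ab1*, a class II beta chain, had mean log2 ratios of 2.15 in controls, 2.69 at the low, 2.72 at the middle and 2.84 at the high dose, and all 5 mice of both upper doses were above all controls. Its log2 fold change at the high dose was 0.69 (SE 0.14, unadjusted p 7.88e-05), at the limit of the test with an adjusted p of 0.0501 by limma that ranged from 0.0156 to 0.330 under other scalings. *H2-Aa*, the alpha chain, had 0.59 (SE 0.19, adjusted p 0.255 by limma).

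Markers of other cells were measured beside these genes, and their part in the values above was not tested. The 13 pan-leukocyte genes had a median of 0.0020 at the high dose, and array means of the log2 ratio of -1.38 to -1.27 in controls and -1.41 to -1.28 at the high dose. *Cd53* had -0.35, with all 5 mice below all controls (adjusted p 0.282 by limma), and *Cd52* 0.30 (adjusted p 0.563 by limma). The 13 B cell markers with a probe had a median of -0.021, with *Cr2* at -0.15 (adjusted p 0.602 by limma), and the 11 dendritic cell markers 0.010, with *Ccr9* at -0.19 and *Flt3* at 0.15 (adjusted p 0.342 and 0.614 by limma).

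All 12 hepatocyte markers were higher than control at each dose, with medians of 0.35, 0.32 and 0.40, though 0 were called, and in the liver channel alone 6 of 12 were higher at the high dose with a median of -0.013. Their array means ranged from 4.35 to 5.64 in controls and from 5.12 to 5.68 at the high dose. *Ambp* had 0.62 and *Apoa2* 0.51 at the high dose (adjusted p 0.339 and 0.327 by limma). Of 12 endothelial markers 11 were higher at each dose, with a median of 0.50 at the high dose, and 2 rose. *Lyve1*, of sinusoidal endothelium, rose by 2.23 (SE 0.40, adjusted p 0.0189 by limma, and 0.105 with the scanner's processed signals), and *Icam2* by 0.89 (SE 0.13, adjusted p 0.00325 by limma). Among 12 Kupffer cell and macrophage markers with a probe, *Marco*, a scavenger receptor, rose by 2.19 (SE 0.30, adjusted p 0.00148 by limma), and 10 of the 12 were higher, with a median of 0.10 that turned to -0.071 in the liver channel alone.

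Of 11 neutrophil markers with a probe 6 were present and 0 were called, with *S100a9* at 1.34 (adjusted p 0.188 by limma) and *Mmp8*, well above background on 1 array, at 0.28 (adjusted p 0.224 by limma). The 6 red cell markers had a median of 0.29 (0.039 in the liver channel alone), with *Hbb-bt* at 0.55 and *Alas2* at 0.31 (adjusted p 0.287 and 0.366 by limma). The 9 lung epithelium markers had a median of 0.016, with *Sftpd*, which other tissues also make, at 1.19 and *Napsa* at -0.35 (adjusted p 0.0688 and 0.308 by limma).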

How the data were processed

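The 10 genes and the other gene lists were chosen with earlier results of these data known. Spot and background intensities (median signals) of the liver and reference channels were deposited by the authors as scanner output, without normalization. The scanner software's processed intensities, also deposited, were already corrected for background and dye, and the log2 ratios deposited by the authors had been LOWESS normalized. Spot marks (well above background, saturated, outlier) are those the authors deposited, and 0 spots were saturated.

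Median intensities of 43379 spots that were not controls were background corrected by normexp (offset 50) and loess normalized within arrays. Outlier spots were left out, and spots of a probe were averaged (41174 probes). Presence required a liver signal above the trimmed mean (5%) plus 3 trimmed SDs of 153 negative control spots. The submitters' design text gives 24 mg/kg for the lowest dose, and the labels' 25 was used. The study left out 1 sample without naming it, and all 20 were kept. Probes were named through RefSeq accessions (23374 probes). Models were fitted with limma 3.58.1 (R 4.3.3, statmod 1.5.0, data.table package 1.17.8), two-sided, on all 20 arrays, and tested on simulated data. Figures used Python 3.11.15 and matplotlib 3.10.9. The number of arrays limits the precision. Alternatives were other background, normalization, presence filter, slide, variance and sample choices, and leaving out each array. The reference channel alone, and the other lists under other scalings, were added after seeing the data.

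Named genes were all 10 genes with every probe, the called genes of each list or, where it had none, the 2 with the smallest unadjusted p at 75 mg/kg/day, and the 5 genes with the highest mean r. One of the genes this rule names is not reported here. A listed gene with several probes was represented by the probe of highest mean intensity.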

Additional observations from a re-analysis of the deposited data

Results flagged for a closer look

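In 2 of 28 groups of 5 arrays, 1 array lay apart from the others by Dixon's test, which chance does in about 1 in 20 groups, and both were mouse 6 at 25 mg/kg/day. Its log2 ratio of *Cd3d* was 0.73, with the nearest array of the group at 0.21 and the lowest at 0.0049. Its log2 ratio by the dimmer *Nkg7* probe was 0.48, with the nearest array at 0.24 and the lowest at 0.18. The brighter *Nkg7* probe was also highest in this group on that array, at 0.89. This array had 59.5% of its spots well above background for liver RNA.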

How the results depend on the processing

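No probe of the T cell and NK cell genes was called, and none had a dose trend, in any of 90 alternative counts of calls and 29 of trends. Of 627 alternative log2 fold changes, 593 kept their direction and side of the threshold, 33 turned and 1 passed an adjusted p of 0.05, and no value that turned had an adjusted p under 0.05. For *Cd3g* at 75 mg/kg/day the alternatives gave -0.51 (the authors' log2 ratios, adjusted p 0.0415 by limma) to -0.10 (liver channel alone), with adjusted p-values from 0.0415 to 0.847, and leaving out each array gave -0.49 to -0.34. Without background correction, the brighter *Cd4* probe at 25 mg/kg/day turned to 0.0043 and the dimmer *Nkg7* probe at 75 mg/kg/day to 0.012. With the processed intensities, *Cd4* turned to 0.059 at 25 and -0.030 at 75 mg/kg/day, and the median over the 11 probes moved to 0.059 at 25 and -0.10 at 50 mg/kg/day. With the authors' log2 ratios, *Cd4* at 25 mg/kg/day was 0.0099 and the dimmer *Nkg7* probe at 75 mg/kg/day 0.012. In the liver channel alone, *Lck* was 0.038, 0.071 and 0.057 at 25, 50 and 75 mg/kg/day and *Cd4* -0.024 at 75 mg/kg/day. With slide as a fixed block, *Cd3e* was 0.013 at 25 and 0.0028 at 75 mg/kg/day, *Cd4* 0.0040 at 25, the dimmer *Nkg7* probe -0.070 at 25 and the brighter one -0.049 at 75 mg/kg/day, and with slide as a random block the dimmer probe was -0.0070 at 25 mg/kg/day. Some values moved far: over the alternatives the dimmer *Nkg7* probe ranged from -0.070 to 0.64 at 25 mg/kg/day, past the 1.5-fold limit. At 50 mg/kg/day it ranged from 0.029 to 0.42. The lowest adjusted p-values were 0.857 and 0.863 by limma. Leaving out each array gave ranges across 0 for *Cd4* at 25 (-0.036 to 0.014) and 75 mg/kg/day (-0.015 to 0.045), the dimmer *Nkg7* probe at 25 (-0.031 to 0.089) and 50 mg/kg/day (-0.011 to 0.12), *Cd3e* at 50 mg/kg/day (-0.16 to 0.049) and *Lck* at 50 mg/kg/day (-0.11 to 0.082). The cause of these turns was not tested. Dim spots limit every value here, with medians per probe of the liver signal over the local background of 1.05 to 2.44. No replicate number occurs in 2 groups, so numbers pair no samples, and arrays of the same slide were compared instead.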
